A study of Mus musculus with 4 samples.

Results

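The NRF2 and glutathione defence genes examined here were Nfe2l2, Keap1, Nqo1, Hmox1, Gclc, Gclm, Slc7a11, Txnrd1, Srxn1 and Gsr, which were listed by name. All 10 genes were on the array, with 21 of its 45037 non-control probe sets (a probe set is a group of short probes for 1 transcript), and they are 10 of the 18193 genes that could be named by a single symbol. They were measured in 2 mouse mammary tumor cell lines, 8534 and 8542, each derived from a primary tumor of a different female MMTV-tTA/TOP-ICN1 transgenic mouse of FVB/N;B6 background. In these mice the mammary tumor virus promoter drives the tetracycline transactivator, which in turn drives a human intracellular NOTCH1 transgene (ICN1). Cells of each line were treated with doxycycline at 2 µg/ml for 24 hours, which switches the transgene off, or were left untreated with the transgene on. Each line and condition gave 1 array, so that the line is the replicate (n = 2 lines), and no drug control without the transgene was analysed here. The effects of doxycycline itself and of the loss of ICN1 therefore cannot be told apart.

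NRF2, the product of Nfe2l2, is a transcription factor that switches on genes against oxidants and reactive chemicals. In unstressed cells KEAP1 hands it to a CUL3 ubiquitin ligase for degradation, and oxidants that modify KEAP1 let NRF2 accumulate, so that its activity is set largely at the level of the protein. NRF2 pairs with small MAF proteins on antioxidant response elements (AREs), and its targets supply glutathione, the main soluble thiol of the cell, reduce thioredoxin and quinones, and break down heme. In breast and other epithelial tumors the pathway is known for protecting cells from oxidative damage and from drugs.

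The ARE core was looked for in the promoters, since it is the element through which these genes are known to be grouped. RefSeq promoter sequences (GRCm38.p6, 250 bases before to 50 bases after a start site) were matched for 7 of the 10 genes, with 9 promoters in all, and not for Hmox1, Gclc or Gsr. The core, written TGACNNNGC and searched on both strands, was found in 1 promoter each of Nfe2l2, Gclm, Txnrd1 and Srxn1, against 12.4% of all 32851 promoters of this length. Each is shown on the strand of its gene with 10 bases on either side, and capitals mark the core or its reverse complement. A match of letters is a description and no evidence of binding.
Nfe2l2, chr2:75704885-75704913, minus strand: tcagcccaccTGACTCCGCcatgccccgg
Gclm, chr3:122245413-122245441, plus strand: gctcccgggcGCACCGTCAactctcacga
Txnrd1, chr10:82859104-82859132, plus strand: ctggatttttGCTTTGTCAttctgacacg
Srxn1, chr2:152105542-152105570, plus strand: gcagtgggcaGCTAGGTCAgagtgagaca
The core of Nfe2l2 reads in the direction of the gene, whereas those of Gclm, Txnrd1 and Srxn1 read in the opposite direction. That of Srxn1 lies 28 bases after the start site and the others lie before it. The core bound by RBPJ, the DNA-binding partner of NOTCH, written TGGGAA and searched likewise, was found in a promoter of Nqo1, Slc7a11, Txnrd1 and Srxn1, against 25.6% of all promoters of this length.

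Of the 10 genes, Hmox1 alone changed with doxycycline by either criterion used, and it rose. Values are MAS5 signals in arbitrary units, analysed as log2, and each gene is represented by its lead probe set, the one that was brightest on average (mean log2 value of the 4 arrays). A limma fit with the cell line as a block was made on the 75% of probe sets with the highest mean log2 value, and a gene was called at an adjusted p under 0.05 (Benjamini-Hochberg, over all 33778 probe sets tested). Of 9 members tested, 1 was called higher, where 4.76% of all 15070 genes tested were called higher. None was called lower in limma, where 6.95% of all genes were. At an unadjusted p under 0.05 there were 3 members, Hmox1 and Srxn1 higher and Gclc lower, against 26.5% of all genes in either direction. By the study's own criterion, a change over 2-fold in each line, Hmox1 was higher and no member was lower, where 3.09% of all genes were higher and 4.42% were lower. The log2 change of the median member was 0.05 in line 8534 and -0.08 in line 8542, and that of the median gene tested was 0.01 and 0.00014.

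Hmox1 encodes heme oxygenase 1, which splits heme into biliverdin, iron and carbon monoxide. Its signal (probe set 1448239_at, the only one) was 195.5 units in doxycycline-treated 8534 cells, against 72.8 units in untreated 8534 cells. It was 136.1 units in treated 8542 cells, against 31.7 units in untreated 8542 cells. Both treated arrays lay above both untreated arrays, as was so for 21.8% of all genes tested. Hmox1 was 2.69-fold higher in 8534 cells and 4.30-fold higher in 8542 cells, and its log2 change averaged 1.76 ± 0.48 (SD, n = 2 lines; limma adjusted p = 0.00473; 95% interval 1.22 to 2.31). By mean change it was the 167th largest rise of the 15070 genes tested. The call was lost without the pairing by line (adjusted p = 0.225) and without the intensity trend in the variance model (adjusted p = 0.232), and the adjusted p ranged from 0.00249 to 0.232 over 9 alternatives. Without the trend no probe set of the 33778 tested was called, with the lowest limma adjusted p at 0.2225. The line with the lower untreated signal had the larger change, and this difference between the lines was not tested.

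Hmox1 is also strongly expressed in macrophages, and of 7 leukocyte markers listed, 6 were on the array. Their summed signal was 265 units in treated and 203 units in untreated 8534 cells, and 208 units in treated and 216 units in untreated 8542 cells. The sum was thus higher with doxycycline in line 8534 and lower in line 8542. Ptprc, the pan-leukocyte CD45, had signals between 6.08 and 7.20 units on the 4 arrays, close to the 20th percentile of all values (5.52 units). The 4 leukocyte markers tested did not pass, with the lowest limma adjusted p at 0.381 for Cd68, and the part of such cells in the Hmox1 result was not tested. The next steps of heme breakdown did not pass the test either. Blvra, a biliverdin reductase, had a log2 change averaging -0.22 ± 0.12 (limma adjusted p = 0.447), Blvrb, another reductase, one of -0.72 ± 0.40 (adjusted p = 0.153), and Fth1, the ferritin heavy chain that stores the iron released, one of 0.07 ± 0.04 (adjusted p = 0.757; SD, n = 2 lines for each).

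**Figure D1:**
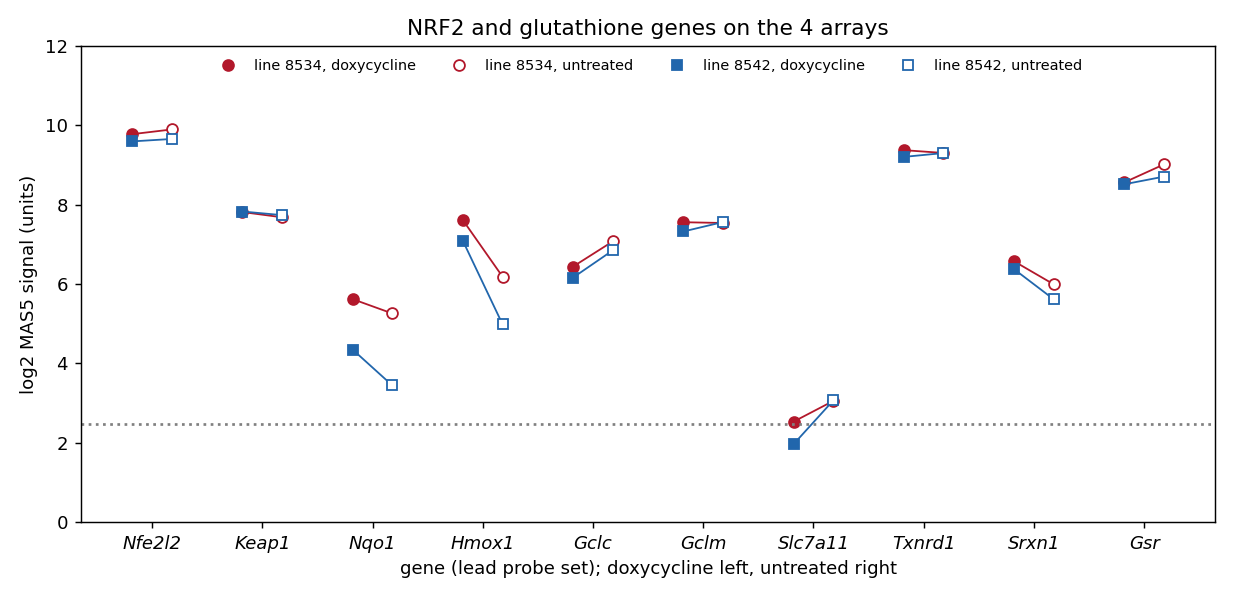
Log2 MAS5 signal (vertical axis) of the lead probe set of the 10 genes, with doxycycline-treated arrays (filled) left of untreated arrays (open), circles for line 8534 and squares for line 8542. Points are single arrays, joined within a cell line, and 20% of all values lie under the dotted line (2.47). Hmox1, Srxn1 and, by little, Keap1 have both treated arrays above both untreated ones, as do 21.8% of all genes tested. Nfe2l2, Keap1, Gclm and Txnrd1 are nearly level.

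The regulators themselves stayed close to their untreated signal. Nfe2l2 (1416543_at) had 877 units in treated and 953 units in untreated 8534 cells, and 773 units in treated and 807 units in untreated 8542 cells. Within each line the treated array was slightly lower, and the groups overlapped. The log2 change averaged -0.09 ± 0.04 (SD, n = 2 lines; limma adjusted p = 0.721), with a 95% interval of -0.36 to 0.18. A weaker probe set of Nfe2l2 (1457117_at) differed in sign between the lines, with -0.45 in line 8534 and 0.38 in line 8542 on the log2 scale. Keap1 (1450746_at) had 225 units in treated and 205 units in untreated 8534 cells, and 227 units in treated and 213 units in untreated 8542 cells. The groups did not overlap, as was so for 45.0% of all genes tested. The difference was small, averaging 0.11 ± 0.03 on the log2 scale (limma adjusted p = 0.736, interval -0.24 to 0.46).

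Neither subunit of glutamate-cysteine ligase, which opens glutathione synthesis, passed the test. Gclc encodes the catalytic subunit of glutamate-cysteine ligase, which makes the rate-limiting step. Its lead probe set (1455959_s_at) had 86.9 units in treated and 134.9 units in untreated 8534 cells, and 71.7 units in treated and 115.4 units in untreated 8542 cells. Both treated arrays lay below both untreated arrays, as was so for 23.1% of all genes tested. The signal was 1.55-fold lower in 8534 cells and 1.61-fold lower in 8542 cells, and its log2 change averaged -0.66 ± 0.04 (SD, n = 2 lines; limma adjusted p = 0.0792, unadjusted p = 0.00941). Over 9 alternatives its adjusted p lay between 0.0505 and 0.329. The other probe set of Gclc (1424296_at) was lower in both lines as well, 1.38-fold in 8534 cells and 3.32-fold in 8542 cells (limma adjusted p = 0.0852).

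Gclm, the modifier subunit of the same ligase, was at nearly the same signal by its lead probe set (1418627_at). It had 188.5 units in treated and 186.0 units in untreated 8534 cells, and 160.4 units in treated and 189.1 units in untreated 8542 cells. The log2 change averaged -0.11 ± 0.18 (limma adjusted p = 0.768), with a 95% interval of -0.49 to 0.28. Its other probe set (1439050_at) was lower in both lines, by -0.64 in line 8534 and -0.29 in line 8542 on the log2 scale (limma adjusted p = 0.288). The difference between the Gclc and Gclm changes was not tested.

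Slc7a11 encodes the xCT subunit of the cystine importer that feeds glutathione synthesis, and its signal was close to background. The lead probe set (1420413_at) had 5.79 units in treated and 8.31 units in untreated 8534 cells, and 3.91 units in treated and 8.38 units in untreated 8542 cells. The treated arrays were lower, but the mean log2 value of 2.66 lay under the filter, so that Slc7a11 was not tested with the others. With no filter, when all 45037 probe sets entered the limma fit, its adjusted p was 0.642. The other probe set (1443536_at) went in opposite directions, with 8.63 units in treated and 1.38 units in untreated 8534 cells, and 4.56 units in treated and 7.04 units in untreated 8542 cells. Slc3a2, the heavy chain with which xCT pairs, was well above background, with signals between 947 and 1345 units and a log2 change averaging -0.36 ± 0.13 (limma adjusted p = 0.112).

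Neither reductase of the thiol systems passed the test. Gsr encodes glutathione reductase, which returns oxidized glutathione to its reduced form with NADPH. Its lead probe set (1421817_at) had 378 units in treated and 517 units in untreated 8534 cells, and 366 units in treated and 418 units in untreated 8542 cells. Both treated arrays lay below both untreated arrays, as was so for 23.1% of all genes tested. The log2 change averaged -0.32 ± 0.18 (limma adjusted p = 0.223, 95% interval -0.65 to 0.0013). The other probe set of Gsr (1421816_at) gave -0.37 ± 0.27 (limma adjusted p = 0.248). Txnrd1, the cytosolic thioredoxin reductase, was level, with 664 units in treated and 632 units in untreated 8534 cells, and 590 units in treated and 631 units in untreated 8542 cells (1421529_a_at). Its log2 change averaged -0.013 ± 0.12 (limma adjusted p = 0.969), and its 95% interval was -0.30 to 0.28. The weaker probe sets of Txnrd1 gave mean log2 fold changes of -0.28 and -0.25, with limma adjusted p values of 0.51 and 0.819.

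Srxn1 encodes sulfiredoxin, which repairs overoxidized peroxiredoxins. Its lead probe set (1426875_s_at) had 95.3 units in treated and 63.7 units in untreated 8534 cells, and 83.1 units in treated and 49.1 units in untreated 8542 cells. Both treated arrays lay above both untreated arrays, as was so for 21.8% of all genes tested. The rise was 0.58 in line 8534 and 0.76 in line 8542 on the log2 scale, and the change averaged 0.67 ± 0.13 (limma adjusted p = 0.112, unadjusted p = 0.0163). The 4 probe sets of Srxn1 did not give the same picture. A probe set of nearly the same mean level (1451680_at) was higher in both lines by 0.69 and 0.20 on the log2 scale, 1419942_at by 0.70 and 0.08, and 1425351_at gave log2 changes of 0.06 in line 8534 and -0.24 in line 8542. With the 4 averaged the adjusted p was 0.498.

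Nqo1 encodes a quinone reductase and is the target most often used to read NRF2 activity. It had 49.2 units in treated and 38.3 units in untreated 8534 cells, and 20.4 units in treated and 10.9 units in untreated 8542 cells (1423627_at). The treated array was higher within each line, but both arrays of line 8534 lay above both arrays of line 8542, and the groups overlapped. The log2 change averaged 0.63 ± 0.38 (SD, n = 2 lines; limma adjusted p = 0.373), with a wide 95% interval of -0.23 to 1.49. In untreated cells Nqo1 was 3.52-fold higher in 8534 cells than in line 8542, and Hmox1 2.30-fold higher. These differences in level between the lines were not tested.

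Read by direction, 4 of the 10 genes were higher in both lines (Keap1, Nqo1, Hmox1 and Srxn1), 4 were lower in both (Nfe2l2, Gclc, Slc7a11 and Gsr), and Gclm and Txnrd1 had opposite signs. Of the 9 genes tested, 7 had the same sign in both lines, where 67.6% of all genes tested did. Treated and untreated arrays did not overlap for Keap1, Hmox1, Gclc, Srxn1 and Gsr among the genes tested and for Slc7a11 outside the test, where 45.0% of all genes tested did not overlap. Both counts of members rest on few genes.

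**Figure D2:**
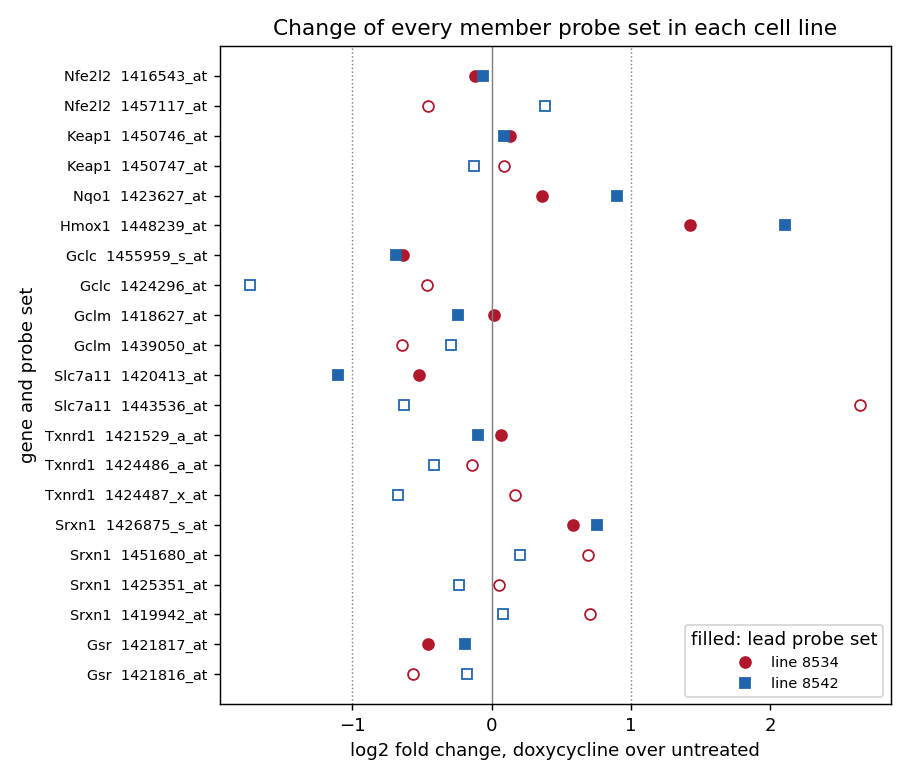
Log2 fold change, doxycycline over untreated (horizontal axis), of the 21 probe sets of the 10 genes, with circles for line 8534, squares for line 8542 and filled points for lead probe sets. Dotted lines mark a 2-fold change; Hmox1 lies past it in both lines (1.43 and 2.10), and the weak second probe set of Slc7a11 lies at 2.64 and -0.63.

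The rest of the pathway was read from 6 lists with 102 genes, of which 94 were on the array and 88 were tested. Of these 88, 7 were called higher, 8 were called lower and 73 did not pass, shares of 7.95% and 9.09% beside the 4.76% and 6.95% of all genes. By the study's own criterion of over 2-fold in each line, 0 of the 94 were higher and 7 were lower. Of all genes, 3.09% were higher and 4.42% were lower by that criterion. The log2 change of the median gene of the 88 was 0.04 in each line. Without the pairing none was called higher and 2 were called lower, and without the intensity trend none was called in either direction. At an unadjusted p under 0.05, 19 were higher and 15 lower in the main fit, against 26.5% of all genes in either direction. The counts were 7 higher and 7 lower without the pairing, and 7 higher and 8 lower without the trend. The share of all genes under these alternatives was not computed.

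Among 15 regulators and partners of NRF2 tested, 3 rose and 1 fell, and 11 missed the threshold. The shares were 20% higher and 6.67% lower, beside 4.76% and 6.95% of all genes, and they rest on few genes. Nfe2l1 and Nfe2l3, relatives of Nfe2l2 that bind the same elements, rose 1.65-fold and 1.43-fold in 8534 cells and 1.77-fold and 1.65-fold in 8542 cells (limma adjusted p = 0.011 and 0.0379). Sqstm1, whose product p62 takes KEAP1 into autophagy, rose 1.45-fold in 8534 cells and 1.55-fold in 8542 cells (adjusted p = 0.0175). With a gene's probe sets averaged, the calls of Nfe2l3 and Sqstm1 were lost, with a smaller log2 change for Nfe2l3 (0.35, adjusted p = 0.361) and a larger one for Sqstm1 (1.17, adjusted p = 0.0744), against 0.62 and 0.58 by the lead probe sets. Palb2, a DNA repair protein that in human cells also binds KEAP1, fell 3.10-fold and 2.77-fold (adjusted p = 0.00726). Bach1, the repressor that competes with NRF2 for AREs and for Hmox1 in particular, had 284 units in treated and 296 units in untreated 8534 cells, and 280 units in treated and 269 units in untreated 8542 cells. Its change was -0.00024 ± 0.08 on the log2 scale (limma adjusted p = 0.999; interval -0.33 to 0.33).

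Outside glutamate-cysteine ligase, glutathione supply held 1 called gene of 8 tested (12.5% lower, beside 6.95% of all genes). Cbs, the first enzyme of the transsulfuration route from homocysteine to cysteine, had 89.9 units in treated and 781 units in untreated 8534 cells, and 77.1 units in treated and 562 units in untreated 8542 cells. It fell 8.68-fold and 7.30-fold (limma adjusted p = 0.000184), with both treated arrays well below both untreated ones. Both treated arrays lay below both untreated ones for 23.1% of all genes tested. Cth, the next enzyme of that route, had a log2 change averaging -1.25 ± 1.23 and did not pass (adjusted p = 0.243). Gss, glutathione synthetase, which adds the last amino acid, had one of 0.54 ± 0.13 (adjusted p = 0.143).

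Of 29 peroxidases, transferases and glutaredoxins that use glutathione, 2 rose and 2 fell, and 25 missed the threshold. Each share was 6.90%, near the 4.76% and 6.95% of all genes. The kappa-class transferase Gstk1 had 20.2 units in treated and 126.9 units in untreated 8534 cells, and 19.8 units in treated and 134.6 units in untreated 8542 cells. It fell 6.27-fold and 6.81-fold (limma adjusted p = 0.00123). Gpx2, an epithelial glutathione peroxidase and a known NRF2 target, fell 3.60-fold and 4.58-fold (adjusted p = 0.00136). Gpx1, the general cytosolic peroxidase, rose 1.57-fold and 2.18-fold (adjusted p = 0.0106), and the omega-class transferase Gsto1 rose 1.96-fold and 1.81-fold (adjusted p = 0.00411).

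Of 14 thioredoxin, peroxiredoxin, superoxide dismutase and catalase genes tested, Prdx4 alone was called (7.14% lower, beside 6.95% of all genes). Prdx4, the peroxiredoxin of the endoplasmic reticulum, fell 2.33-fold in 8534 cells and 2.89-fold in 8542 cells (limma adjusted p = 0.00146). The list for the supply of NADPH, which both reductases consume, had no probe set named for G6pdx alone. Of its 8 genes tested, 3 fell and 5 did not pass. Those that fell were 37.5% of the 8, beside 6.95% of all genes called lower, a share that rests on few genes. Idh1, the cytosolic NADP-dependent isocitrate dehydrogenase, had 357 units in treated and 1978 units in untreated 8534 cells, and 925 units in treated and 3310 units in untreated 8542 cells. It fell 5.54-fold and 3.58-fold (adjusted p = 0.000606). Taldo1, transaldolase of the pentose phosphate pathway, fell 2.45-fold and 2.26-fold (adjusted p = 0.00117), and the mitochondrial Idh2 fell 1.51-fold and 1.53-fold (adjusted p = 0.0233). The call of Idh2 was lost when its probe sets were averaged. Among 14 other NRF2 targets tested, 2 rose (14.3%, beside 4.76% of all genes called higher) and 12 did not pass. The efflux pump Abcc4 rose 2.53-fold and 1.75-fold (limma adjusted p = 0.031), and Trim16, a ubiquitin ligase, rose 1.54-fold and 2.38-fold (adjusted p = 0.0314). With no expression filter the calls of Nfe2l3, Abcc4 and Trim16 were lost, and that of Trim16 also with its probe sets averaged (adjusted p = 0.122).

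**Figure D3:**
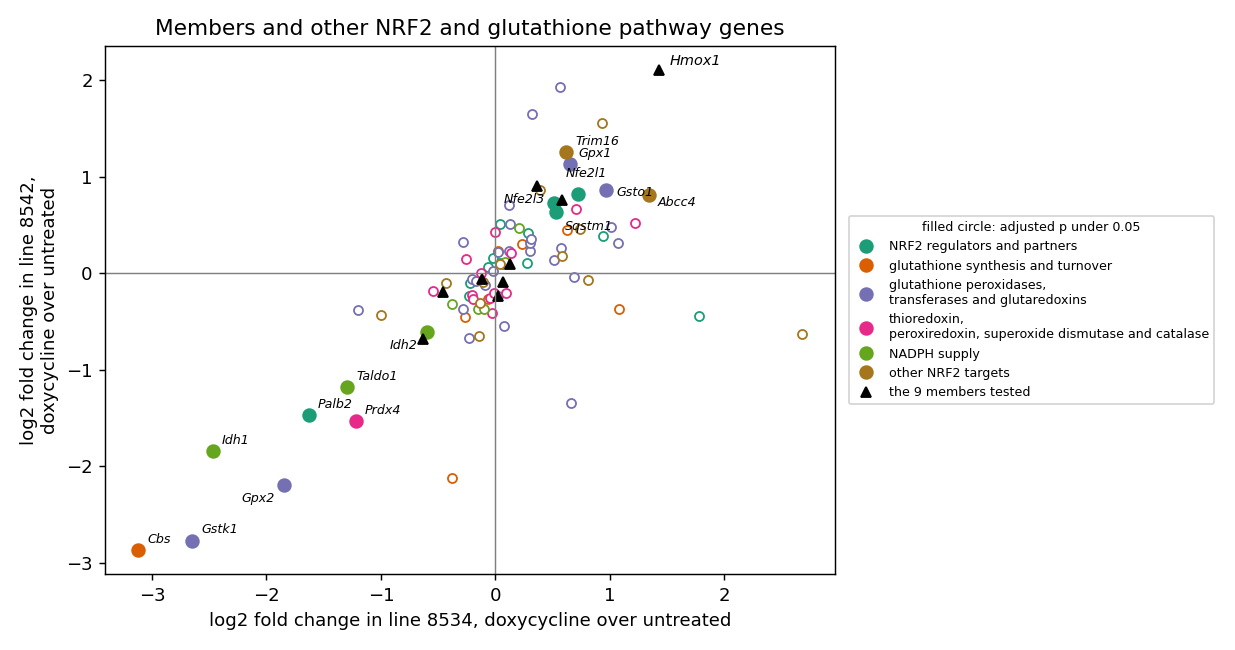
Log2 fold change, doxycycline over untreated, in line 8534 (horizontal axis) and line 8542 (vertical axis) of 88 other pathway genes, colored by list, and of the 9 members tested (black triangles). Each point is 1 gene and circles are filled where the limma adjusted p was under 0.05. Cbs lies lowest, at -3.12 and -2.87, and the members other than Hmox1 lie within a 2-fold change in each line.

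The labels were checked on NOTCH target genes and on epithelial markers. Hey1 fell 11.8-fold and 7.55-fold, Nrarp 21.6-fold and 31.6-fold and Dtx1 3.07-fold and 3.73-fold in lines 8534 and 8542, while Hes1 had log2 fold changes of -0.80 and -0.40 and did not pass (limma adjusted p = 0.0579). Luminal keratins were high in both lines, with Krt8 signals between 3467 and 7165 units on the 4 arrays. Of 5 luminal markers tested, Krt8 and Krt18 rose (limma adjusted p = 0.0295 and 0.0163), by 0.47 and 0.54 on the log2 scale, and Krt19 fell (mean log2 change -0.87, adjusted p = 0.00302). The basal markers differed between the lines, with Krt14 at 869 units in treated and 1379 units in untreated 8534 cells, and at 10.0 units in treated and 15.9 units in untreated 8542 cells. The 4 basal markers summed to 7504 units in treated and 4451 units in untreated 8534 cells, and to 236 units in treated and 188 units in untreated 8542 cells. Most of this sum was Acta2, the smooth muscle actin, with 6588 units in treated and 3012 units in untreated 8534 cells, and 180.7 units in treated and 147.6 units in untreated 8542 cells (limma adjusted p = 0.0688), whereas Krt14 was lower with doxycycline in both lines (adjusted p = 0.0635). The part of these luminal and basal differences in the changes above was not tested.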

How the data were processed

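Total RNA of doxycycline-treated and untreated cells was hybridized to Affymetrix mouse genome arrays. Per the methods, the authors ran MAS5, a background correction with scaling of every array to 1 trimmed mean, and the deposited values are log2 of the resulting signal. Base 2 was inferred, because it brings the 2% trimmed means to 97.7 to 101.8 units, near a common target. For MAS5, the version, target and detection calls were not given in the sources used here. The array named in the methods is the A version, which holds fewer probe sets than the 45101 found. Precision is limited by the number of arrays (4).

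The 64 control probe sets were dropped. GEO's platform annotation had 1 symbol for 34945 probe sets, which were named, several for 932 and none for 9160. Values were neither floored nor rescaled. limma 3.58.1 under R 4.3.3 was fitted with terms for line and treatment on 33778 probe sets (mean log2 value of 2.94 or more, the 25th percentile), using moderated variances with a trend on intensity, and p values were adjusted by the Benjamini-Hochberg method. Moderation added 6.18 degrees of freedom to the 1 left by the model. The 95% intervals come from this fit, unadjusted. The labels pair the arrays by cell line, and deviations from the condition means correlated within lines (r = 0.36). With 6.18 degrees of freedom from moderation against 1, each p-value draws mostly on the variance typical of probe sets of like intensity. A gene's own difference in change between the 2 lines has the smaller weight. That typical variance also comes from these 2 lines alone. An exact test on the 2 lines could reach no lower than p = 0.5.

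The fit was tested on simulated data whose noise followed a smooth trend on intensity, so that the simulation could not test the choice of that trend. Members and lists were chosen with earlier results of these data known. Named were all members, up to 3 called genes per list and direction with the largest change, and Hey1, Hes1, Dtx1 and Nrarp. Blvra, Blvrb, Fth1, Slc3a2, Bach1, Cth and Gss were named after their values were seen, for their place beside a member, as were the markers Ptprc, Cd68, Krt14 and Acta2. Of 6 marker lists, leukocyte and basal sums and luminal calls are given beside the results. Alternatives are given with the closing observations.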

Additional observations from a re-analysis of the deposited data

Results flagged for a closer look

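These probe sets had opposite signs in the lines, each with 1 array per condition, and the difference between the lines was not tested. On the log2 scale, the change in line 8542 minus that in line 8534 was -3.27 for Slc7a11 1443536_at, of which the treated 8542 and untreated 8534 signals lay under 5.52 units. It was 0.83 for Nfe2l2 1457117_at (0.38 in line 8542 and -0.45 in line 8534) and -0.84 for Txnrd1 1424487_x_at (-0.67 and 0.17). It was small for Srxn1 1425351_at (-0.29), Gclm 1418627_at (-0.26), Keap1 1450747_at (-0.22) and Txnrd1 1421529_a_at (-0.17). Among lead probe sets these were Gclm and Txnrd1.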

How the results depend on the processing

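With each of no expression filter, a filter at the 50th percentile, a floor, a pseudocount, quantile normalization, median centring and averaging of a gene's probe sets, Hmox1 stayed the 1 member called. Without the replicate block (the pairing by line) and without the intensity trend the members called higher were 0 in limma (2 at an unadjusted p under 0.05 in each), and the other pathway genes called were 0 higher and 2 lower, and 0 and 0. The loss without the trend held for all 33778 probe sets tested, so that every limma call given here depends on the trend. With no filter 4 other pathway genes were called higher (Nfe2l1, Gsto1, Sqstm1 and Gpx1). With averaged probe sets 1 other pathway gene, Glrx, was more than 2-fold higher in both lines. By its lead probe set Glrx did not pass (limma adjusted p = 0.143). No other member reached a limma adjusted p under 0.05 under any alternative that tested it. At an unadjusted p under 0.05, Gsr was also lower with no filter, with the floor and with averaged probe sets. Srxn1 was no longer higher at that level with averaged probe sets. The sign of Txnrd1 turned with quantile normalization (0.026). Nqo1 lay under the 50th percentile filter.

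Leaving out a line left no residual degrees of freedom and gave values only. In the line left, 0 to 1 members were more than 2-fold lower (Slc7a11, without line 8534). Of the 94 other pathway genes on the array, 7 were more than 2-fold higher without either line and 10 to 11 were lower. The share of all genes past 2-fold in 1 line was not computed, so these counts cannot be set against it. With 1 array left out and the fit on condition alone, where the lone array is assumed to vary like the pair, the members called higher were 0 each time (0 to 2 at an unadjusted p under 0.05), and the other pathway genes called were 0 higher and 0 to 1 lower. Hmox1 then had log2 fold changes of 1.16 to 2.36 and adjusted p values of 0.238 to 0.516. Over the lines and arrays left out in turn, the log2 fold change ranged from -0.21 to 0.030 for Nfe2l2 (0.0010 without the treated 8542 array), -0.27 to 1.54 for Nqo1 (-0.0035 without the treated 8534 array), -0.24 to 0.019 for Gclm (0.0074 without the treated 8542 array) and -0.098 to 0.072 for Txnrd1.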

Other observations

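Of the 88 other pathway genes tested, Cbr3 and Maff had the widest difference in change between the lines (-3.31 and -2.22 on the log2 scale, line 8542 minus line 8534), and they are named after their values were seen. Cbr3, a carbonyl reductase and known NRF2 target, had 41.7 units in treated and 6.52 units in untreated 8534 cells, and 6.25 units in treated and 9.67 units in untreated 8542 cells (limma adjusted p = 0.567 over both lines). Maff, a small MAF partner of NRF2, had 144.2 units in treated and 42.1 units in untreated 8534 cells, and 20.6 units in treated and 28.1 units in untreated 8542 cells (limma adjusted p = 0.495). The difference between the lines was not tested. Mafg and Mafk, the other small MAF genes, had mean log2 fold changes of -0.23 and 0.35 and did not pass (limma adjusted p = 0.377 and 0.252).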
